A study of Rattus norvegicus with 4 samples.

Results

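The 40 genes described here belong to the unfolded protein response of the endoplasmic reticulum (ER) and to the amino acid response that shares its regulator Atf4. They were chosen by name, with earlier results of these data known. Each is represented by the probe set with the highest mean log2 signal among those that the platform annotation pairs with that symbol alone. A probe set was found for 39 of the 40 genes, out of 14217 genes with such a probe set on the array, and all 39 were bright enough to be tested. Ern1, the stress sensor that splices Xbp1 RNA, had none there and is not analysed here. The cells were RT4D6, a rat line from a Schwannoma, a tumour of the Schwann cells that wrap peripheral axons. Their RNA was hybridized to 4 Affymetrix rat expression arrays: 2 of cells given the wild type siRNA, which is specific for Sox10, and 2 of cells given a mutant siRNA as control. All 4 arrays are labelled 48 h, and the study describes the arrays as 2 independent pairs of cell samples, numbered replicate 1 and replicate 2 in the labels. The groups thus share line and time and differ in the siRNA, and the line is a tumour model of the Schwann cell.

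Secreted and membrane proteins are folded in the ER by chaperones and disulfide isomerases, and misfolded proteins are passed back to the cytosol for degradation. When unfolded proteins accumulate, the sensors Eif2ak3 (PERK), Ern1 (IRE1) and Atf6 respond: PERK slows translation and favours translation of Atf4, IRE1 splices the RNA of Xbp1, and Atf6 is cut to release a transcription factor. Atf4 is also raised when amino acids run short, through another kinase of the same translation factor, and it activates genes of amino acid uptake, serine synthesis and folate metabolism. Schwann cells depend on this machinery because myelin proteins are made in the ER.

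The siRNA check and the cell type come first. Sox10 had signals of 163 and 335 with the wild type siRNA, against 2873 and 2890 with the mutant siRNA. Of 7 genes listed as Schwann cell or glial markers, 5 had a probe set, and all 5 were lower with the wild type siRNA, among them Erbb3, which was bright enough to test through the mutant siRNA arrays alone (4 without it). Summed over these 5 genes the signal was 1006 and 1468 with the wild type siRNA, against 15422 and 11267 with the mutant siRNA. Of 6 smooth muscle markers 4 were bright enough to test, and of these Acta2 and Tagln were higher. The sum of all 6 was 23896 and 28641 with the wild type siRNA, against 6542 and 11185 with the mutant siRNA, but Tagln alone made up 21242 and 22657 of it with the wild type siRNA, against 5482 and 9015 with the mutant siRNA. Smtn lay on the other side, with signals of 280 and 401 with the wild type siRNA, against 522 and 771 with the mutant siRNA (log2 fold change -0.84, limma adjusted p = 0.0633). The sum of the 5 fibroblast markers was 1979 and 3414 with the wild type siRNA, against 1688 and 1587 with the mutant siRNA, and neither of the 2 bright enough to test passed. The 4 macrophage markers stayed between 4.0 and 98.5 on all arrays and none was bright enough to test. What part these shifts in cell character have in the results that follow was not tested, and in RNA of whole cultures fewer cells of a kind and less RNA per cell cannot be told apart.

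A gene was called where its adjusted p from limma was below 0.05. Of the 39 genes, 13 were lower with the wild type siRNA and 2 were higher. Over all 9163 tested genes, with 1 probe set each, 10.6% were lower and 17.4% were higher, so that the share of lower genes here, 33.3%, stood above the share over all genes, and the share of higher genes, 5.13%, stood below it. These shares depend on the centring: without it 12.4% of all genes were lower and 14.2% higher, and with quantile normalization 11.9% and 14.7%. The median log2 fold change of the 39 genes was -0.23, against 0.19 over all tested genes. Because the genes were listed with earlier results of these data known, these shares and medians describe the list. After centring, both wild type siRNA arrays lay below both mutant siRNA arrays for 19 of the 39 genes and above them for 6, against 24.4% and 45.3% of all tested genes. The signals printed below are those before centring, in which 4 of the 39 genes (Calr, Edem1, Eif2ak3 and Syvn1) differ in whether the groups overlap. The decrease was uneven. Of the 12 genes of amino acid synthesis and transport, 7 were lower and none was higher (limma, with 0 higher also at an unadjusted p under 0.05; median log2 fold change -1.20), whereas of the other 27 genes, which serve folding, degradation and stress signalling, 6 were lower and 2 were higher (median -0.11). Signals of 2 genes, Slc7a11 and Trib3, reached the array median with the mutant siRNA alone and so entered the test through that group. Slc7a11 is among the 7 lower genes of amino acid synthesis and transport, and their median of -1.20 includes it. Trib3 is among the 6 lower genes of the other 27. Without them 11 genes remain lower, among them 3 enzymes and 3 transporters of amino acids. With 1 array left out at a time, only Sel1l, Phgdh, Psph, Slc7a5, Slc3a2 and Slc7a1 of the 15 calls held in every such fit. The number of lower genes fell without wild type siRNA replicate 1 or either mutant siRNA array. So did the number of lower probe sets among all those tested.

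**Figure D1:**
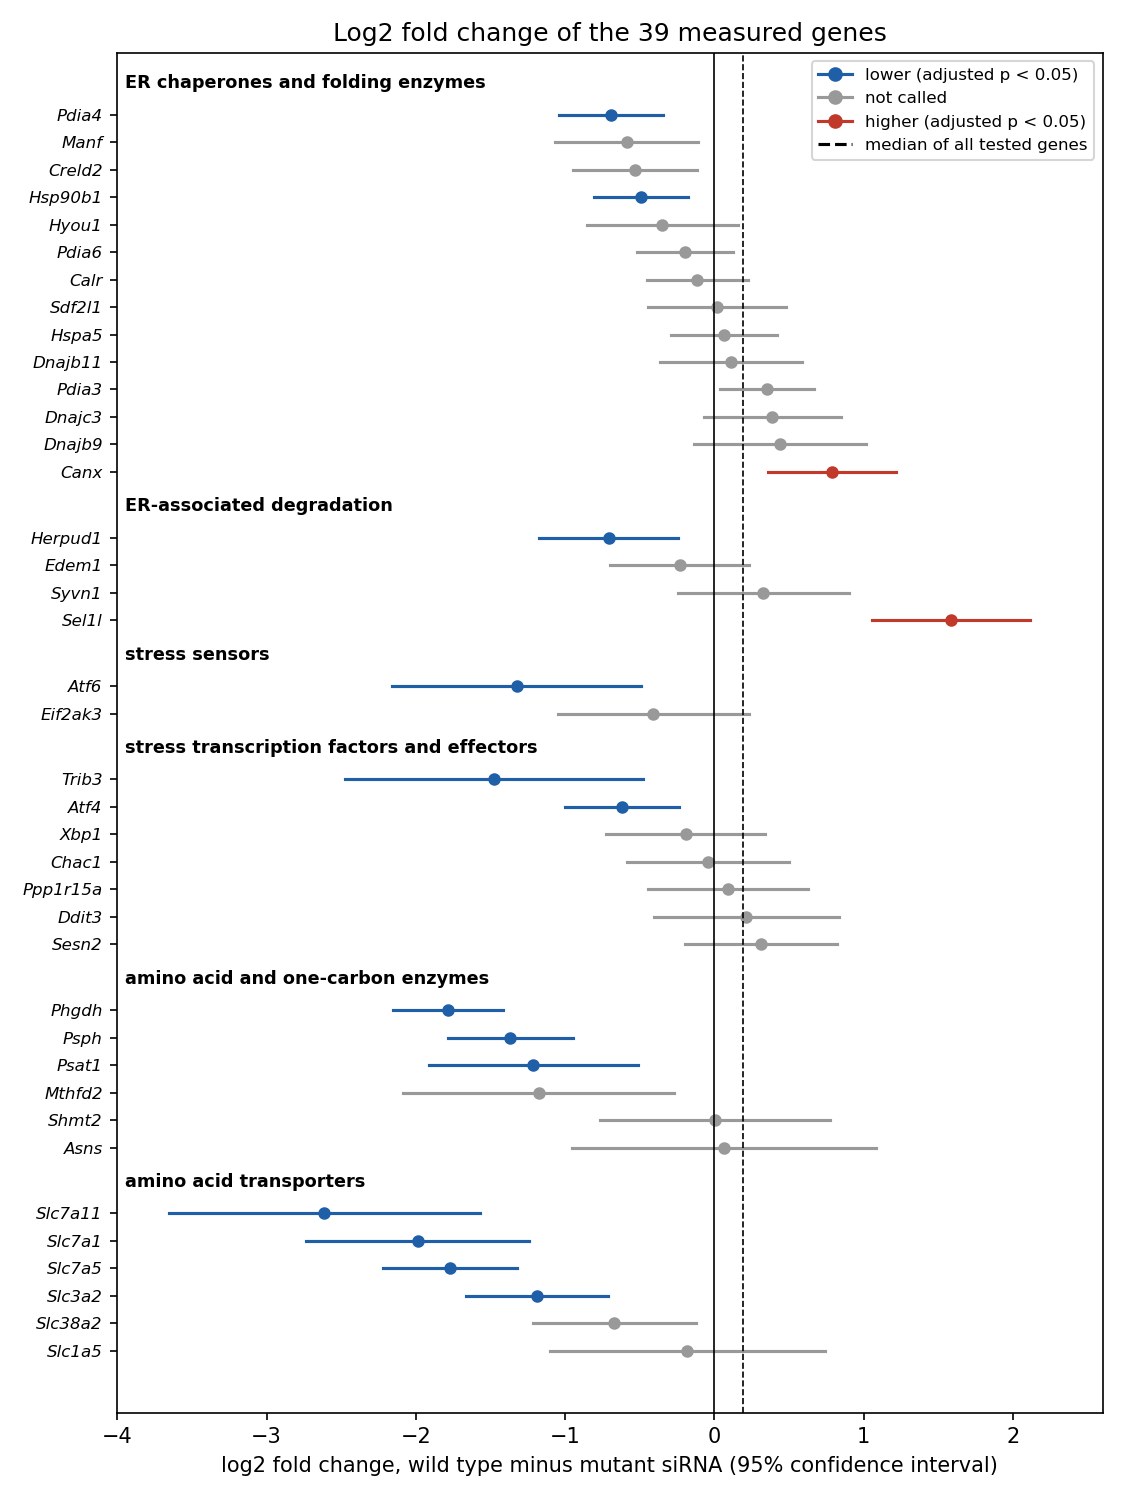
Log2 fold change (wild type minus mutant siRNA) of the 39 measured genes, grouped by role, with 95% confidence intervals from limma as bars. Blue marks the 13 genes lower and red the 2 genes higher at an adjusted p under 0.05, grey the other 24, and the dashed line the median of all tested genes at 0.19. The genes of amino acid synthesis and transport reach furthest to the left, and the chaperones lie around 0.

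The serine pathway was lower at each of its 3 steps. Phgdh makes the first intermediate of serine from a product of glycolysis. Its signals were 1751 and 1762 with the wild type siRNA, against 6432 and 6352 with the mutant siRNA. The arrays of each group thus differed little and the groups lay far apart, at a log2 fold change of -1.78 (standard error (SE) 0.16, limma adjusted p = 0.00130). Psph, the phosphatase of the last step, had signals of 1053 and 937 with the wild type siRNA, against 2770 and 2648 with the mutant siRNA. It was 2.58-fold lower (log2 fold change -1.37, SE 0.18, limma adjusted p = 0.00278). Psat1, the aminotransferase between them, had signals of 2576 and 3740 with the wild type siRNA, against 5460 and 10565 with the mutant siRNA. The groups did not overlap, but mutant siRNA replicate 2 stood well above replicate 1. The log2 fold change of Psat1 was -1.21 (SE 0.31, limma adjusted p = 0.0229), and it no longer passed without wild type siRNA replicate 1 (-0.92, adjusted p = 0.0586) or without mutant siRNA replicate 2 (-0.75, adjusted p = 0.122).

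The mitochondrial folate enzymes use serine as a source of single-carbon units, and neither of those listed among the 39 genes passed the test. Mthfd2 had signals of 410 and 485 with the wild type siRNA, against 656 and 1731 with the mutant siRNA. Its groups did not overlap either, and its log2 fold change of -1.18 (SE 0.40) did not pass (limma adjusted p = 0.0587). It passed with the pair of arrays as a block (adjusted p = 0.00311), where 14.0% of all tested genes were lower, without mutant siRNA replicate 1 (-1.86, adjusted p = 0.0184) and without wild type siRNA replicate 2 (-1.33, adjusted p = 0.0406). Shmt2, which splits serine to glycine in mitochondria, had signals of 2846 and 2918 with the wild type siRNA, against 1978 and 4670 with the mutant siRNA. Asns, asparagine synthetase and a much used reporter of Atf4 activity, had signals of 1196 and 1087 with the wild type siRNA, against 641 and 2072 with the mutant siRNA. For both genes the wild type siRNA arrays lay between the mutant siRNA arrays. The 95% confidence interval of the log2 fold change ran from -0.77 to 0.77 for Shmt2 and from -0.96 to 1.08 for Asns, so that these arrays fix neither the sign nor, within about 2-fold, the size of a change in Asns. Of the further mitochondrial folate enzymes, Mthfd1l had signals of 278 and 437 with the wild type siRNA, against 478 and 717 with the mutant siRNA. It lay at -0.67 and did not pass (limma adjusted p = 0.140), but did with the block (adjusted p = 0.0402). Aldh1l2 had signals of 105 and 211 with the wild type siRNA, against 190 and 426 with the mutant siRNA, and lay at -0.85 (limma adjusted p = 0.214). Like Mthfd2, both had the lower signal with the wild type siRNA in each pair, and they are named after their values were seen.

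Of the 6 amino acid transporters, 4 were lower (66.7%, against 10.6% of all genes) and none was higher. Without Slc7a11, which was bright enough to test through the mutant siRNA arrays alone, 3 were lower. Slc7a11, the cystine carrier of the system that feeds glutathione synthesis, had signals of 64.5 and 62.6 with the wild type siRNA, against 266 and 635 with the mutant siRNA. The wild type siRNA signals lay below the array median, which was between 101 and 110 on the arrays, and above the 25th percentile, between 26.2 and 31.0. Its log2 fold change was -2.61 (SE 0.46, limma adjusted p = 0.00644), the lowest of the 39 genes, and the call did not hold without mutant siRNA replicate 2 (-2.0, adjusted p = 0.0755). Without mutant siRNA replicate 1 it was -3.22 (adjusted p = 0.0183). Slc7a5, the carrier of large neutral amino acids such as leucine, had signals of 782 and 728 with the wild type siRNA, against 2414 and 3068 with the mutant siRNA. The groups were far apart beside the difference between replicates (log2 fold change -1.77, SE 0.20, limma adjusted p = 0.00177). Slc3a2, the heavy chain that both Slc7a5 and Slc7a11 need at the cell surface, had signals of 2046 and 1954 with the wild type siRNA, against 3958 and 5846 with the mutant siRNA. It was 2.28-fold lower (log2 fold change -1.19, SE 0.21, limma adjusted p = 0.00644). So RNA signals of both light chains and of their shared heavy chain were lower on the same arrays, that of Slc7a11 with the limits given above.

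Slc7a1, the carrier of the cationic amino acids arginine and lysine, had signals of 362 and 581 with the wild type siRNA, against 1445 and 2559 with the mutant siRNA. The replicate 2 array was the brighter in both groups, and the differences within the pairs were nearly the same, -1.96 and -2.01 on the log2 scale. The log2 fold change was -1.99 (SE 0.33, limma adjusted p = 0.00527), and a further probe set of the gene lay at -1.50 (adjusted p = 0.0113), while another was too dim to test. The promoter of Slc7a1 is shown because it holds the sequence that Atf4 binds with a C/EBP partner, the C/EBP-ATF composite element, searched as TGATGNAAN on both strands and set in capitals here (RefSeq, GRCr8, chr12:11664443-11664481, plus strand, from 45 bases before the start of transcription to 7 before it).
Slc7a1: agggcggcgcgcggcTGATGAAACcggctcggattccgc
This element was found in 4 of the 34 genes with a promoter in the RefSeq table (250 bases before to 50 after the start), and in 3.97% of all 33469 promoters there. The others were Chac1, Herpud1 and Trib3. The match is a run of letters and was not tested for binding.

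Slc38a2, the sodium-coupled carrier of small neutral amino acids that is induced by amino acid shortage, had signals of 2002 and 3064 with the wild type siRNA, against 3724 and 4649 with the mutant siRNA. The groups did not overlap, and the log2 fold change of -0.67 (SE 0.24) did not pass (limma adjusted p = 0.0703). It passed with the pair of arrays as a block (adjusted p = 0.00600) and without wild type siRNA replicate 2 (-1.0, adjusted p = 0.00735). Slc1a5, the glutamine carrier, had signals of 614 and 530 with the wild type siRNA, against 415 and 1129 with the mutant siRNA, the same overlap as in Asns and Shmt2 (95% confidence interval of the log2 fold change from -1.10 to 0.74).

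**Figure D2:**
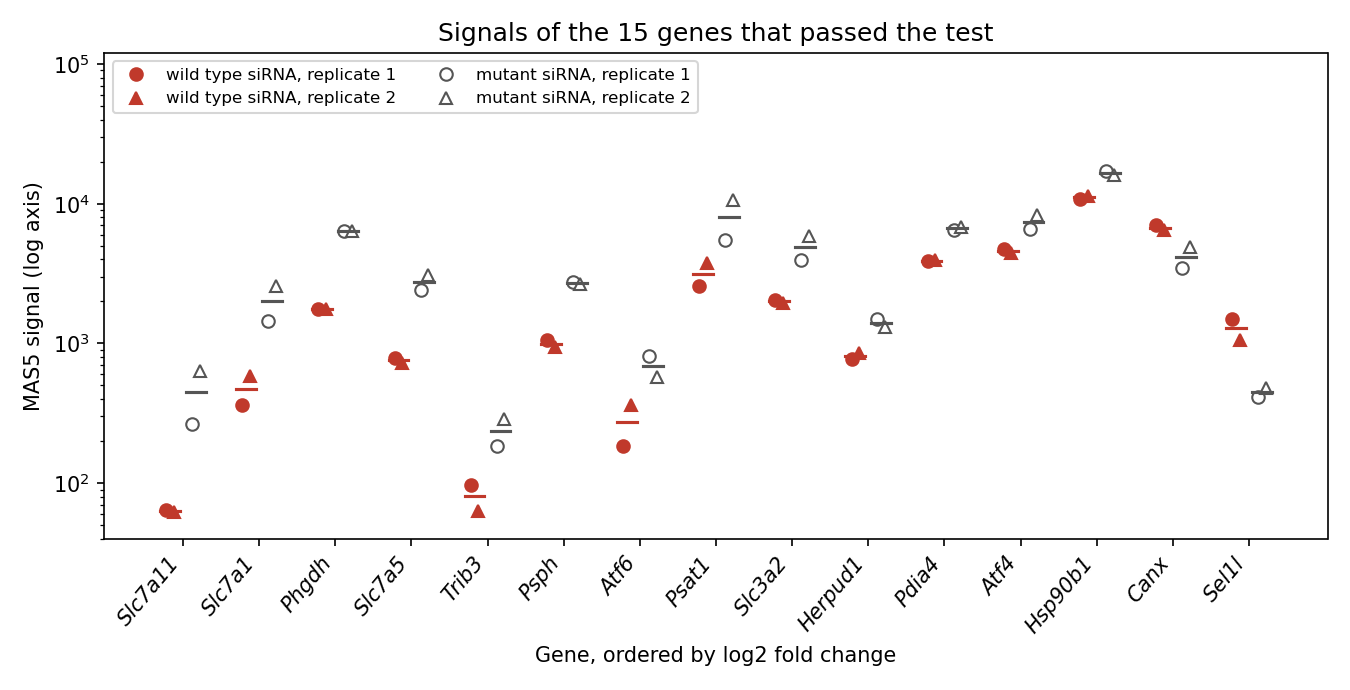
Array signals (MAS5, log axis) of the 15 genes that passed the test, ordered by log2 fold change. Red symbols are the wild type siRNA arrays and open grey symbols the mutant siRNA arrays, circles replicate 1 and triangles replicate 2, with a short line at each group's mean (n = 2). The groups do not overlap in any of the 15 genes. Mutant siRNA replicate 2 lies above replicate 1 in Slc7a11, Slc7a1, Psat1, Slc3a2, Trib3, Atf4, Slc7a5, Canx, Sel1l and Pdia4. It lies below replicate 1 in Phgdh, Psph, Hsp90b1, Herpud1 and Atf6.

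Atf4 itself was modestly lower at the RNA level, which says nothing of its translation, the step at which it is mainly controlled. Its signals were 4708 and 4434 with the wild type siRNA, against 6564 and 8348 with the mutant siRNA. The log2 fold change was -0.62 (SE 0.17, limma adjusted p = 0.0286). The direction held in each fit with an array left out, but the call was lost in all 4 of them (adjusted p between 0.0521 and 0.180, the weakest -0.46 without mutant siRNA replicate 2), as it was when dim probe sets were kept in the test (adjusted p = 0.0512). Trib3, a pseudokinase induced by Atf4 and Ddit3 that restrains both, had signals of 97.5 and 63.5 with the wild type siRNA, against 186 and 287 with the mutant siRNA. All 3 probe sets of Trib3 were lower, at log2 fold changes of -1.48, -2.20 and -2.11. Those at -1.48 and -2.20 were bright enough to test through the mutant siRNA arrays alone. The probe set at -2.20 had wild type siRNA signals of 75.2 and 25.7, the lower of them under the 25th percentile of its array. Wild type siRNA signals were 35.8 and 103 for the probe set at -2.11. The brightest probe set, at -1.48, had a standard error of 0.44 (limma adjusted p = 0.0385). Its call did not hold without mutant siRNA replicate 1 (-1.77, adjusted p = 0.0849), without mutant siRNA replicate 2 (-1.18, adjusted p = 0.253) and without wild type siRNA replicate 2 (-1.19, adjusted p = 0.0704), and also with dim probe sets kept (adjusted p = 0.0795).

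Other effectors of the stress response did not pass the test. Ddit3 (CHOP), the transcription factor of prolonged ER stress, had signals of 601 and 383 with the wild type siRNA, against 468 and 408 with the mutant siRNA, with a 95% confidence interval of the log2 fold change from -0.40 to 0.83. Chac1, a glutathione-degrading enzyme activated by Atf4, had signals of 1181 and 932 with the wild type siRNA, against 944 and 1383 with the mutant siRNA. Its groups overlapped and the interval ran from -0.59 to 0.50. Ppp1r15a (GADD34), which restores translation, and Sesn2, a stress-induced regulator of mTORC1, did not pass either, with intervals from -0.45 to 0.63 and from -0.19 to 0.82. Of these 4 genes none was thus shown to change, and none of the intervals reaches 1 on the log2 scale. The composite element of Trib3 and Chac1 lies on the opposite strand and is set in capitals below (RefSeq, GRCr8, Trib3 at chr3:161275532-161275570, minus strand, and Chac1 at chr3:126795948-126795986, plus strand). It is shown because both genes hold the element but only Trib3 was called, and the difference between them was not tested.
Trib3: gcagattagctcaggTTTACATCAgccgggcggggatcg
Chac1: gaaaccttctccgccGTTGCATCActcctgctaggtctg

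Of the sensors, Atf6 was lower. Its signals were 184 and 365 with the wild type siRNA, against 816 and 574 with the mutant siRNA. The groups did not overlap, but the difference was far larger in pair 1 than in pair 2, -2.12 against -0.53 on the log2 scale. The log2 fold change was -1.32 (SE 0.37, limma adjusted p = 0.0306), lost without wild type siRNA replicate 1 (-0.80, adjusted p = 0.0889), without mutant siRNA replicate 1 (-1.05, adjusted p = 0.164) and without mutant siRNA replicate 2 (-1.60, adjusted p = 0.0604). A dimmer probe set of Atf6 lay at 0.52 (adjusted p = 0.375), so the probe sets of this gene disagree, and with their mean the gene lay at -0.40 and was not called (adjusted p = 0.342). Eif2ak3 had signals of 277 and 393 with the wild type siRNA, against 511 and 419 with the mutant siRNA, and its interval ran from -1.05 to 0.23. Xbp1, the factor made active by Ern1, had signals of 2270 and 2827 with the wild type siRNA, against 2487 and 3758 with the mutant siRNA (interval from -0.72 to 0.34). The array does not separate spliced from unspliced Xbp1 RNA as used here.

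Among the 14 ER chaperones and folding enzymes, 2 were lower and 1 was higher, a share of lower genes of 14.3%, close to the 10.6% over all genes. Hspa5 (BiP), the central chaperone of the ER and the usual readout of ER stress, had signals of 11766 and 14268 with the wild type siRNA, against 12946 and 13257 with the mutant siRNA. The mutant siRNA arrays lay between the wild type siRNA arrays, and the 95% confidence interval of the log2 fold change ran from -0.29 to 0.42. Hsp90b1 (GRP94), a chaperone of receptors and integrins, had signals of 10863 and 11364 with the wild type siRNA, against 17083 and 15969 with the mutant siRNA. It was 1.41-fold lower (log2 fold change -0.49, SE 0.14, limma adjusted p = 0.0323), a call lost with any 1 array left out (adjusted p between 0.0619 and 0.161) or with dim probe sets kept (adjusted p = 0.127). Pdia4, a disulfide isomerase, had signals of 3876 and 3943 with the wild type siRNA, against 6493 and 6858 with the mutant siRNA. Its difference was alike in the pairs, -0.71 and -0.67 on the log2 scale, with a log2 fold change of -0.69 (SE 0.15, limma adjusted p = 0.0142), and the call was lost without wild type siRNA replicate 1 (adjusted p = 0.0507) or either mutant siRNA array (adjusted p = 0.0684 and 0.0785).

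Canx (calnexin), the membrane-bound lectin chaperone of new glycoproteins, went the other way. Its signals were 6995 and 6447 with the wild type siRNA, against 3465 and 4873 with the mutant siRNA. The log2 fold change was 0.79 (SE 0.19, limma adjusted p = 0.0188), and the call did not hold without mutant siRNA replicate 1 (0.56, adjusted p = 0.110). A second probe set of Canx was higher at 1.0 (adjusted p = 0.00769) and the other lay at 0.41 (adjusted p = 0.107). Calr (calreticulin), its soluble relative, had signals of 9521 and 10826 with the wild type siRNA, against 11370 and 11853 with the mutant siRNA (interval from -0.45 to 0.22). The related lectin chaperones were thus not called alike, and the difference between them was not tested.

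Besides Hspa5, the other 10 folding genes did not pass, with log2 fold changes from -0.59 to 0.44. In 3 of them the fit with the pair of arrays as a block passed. Manf, a secreted factor induced by ER stress, lay at -0.59 (limma adjusted p = 0.0690, 0.00835 with the block), and it also passed without wild type siRNA replicate 2 (-0.88, adjusted p = 0.0100). Creld2, another such secreted factor, lay at -0.53 (adjusted p = 0.0601, with the block 0.0318). Pdia3, a disulfide isomerase that works with Calr and Canx, lay at 0.35 (adjusted p = 0.0907, with the block 0.0232). The block called 24.5% of all tested genes higher and 14.0% lower. A dimmer probe set of Pdia3 lay at -1.05 (adjusted p = 0.117), on the other side. The other 7 genes (Hyou1, Pdia6, Calr, Sdf2l1, Dnajb11, Dnajc3 and Dnajb9) were not called in any of 13 limma alternatives, and Dnajb9 had the widest interval, from -0.14 to 1.02.

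The promoters were searched for the ER stress response element, CCAAT and CCACG with 9 bases between them, which is bound by NF-Y together with Atf6 or Xbp1. Searched on both strands, it was found in 7 of the 34 genes with a promoter (Calr, Canx, Creld2, Dnajc3, Hsp90b1, Hspa5 and Xbp1) and in 0.0657% of all promoters, 22 in number. A related form, ATTGG and CCACG with 1 base between them, was in Dnajb11, Herpud1 and Hyou1 and in 0.0508% of all promoters. The genes were listed for belonging to this response, so these shares describe the list. Among the 7 genes with the first form, Hsp90b1 was lower, Canx was higher, and Calr, Creld2, Dnajc3, Hspa5 and Xbp1 did not pass. The stretches of Hsp90b1 (chr7:23012332-23012484, minus strand), Canx (chr10:35158054-35158102, minus strand), Hspa5 (chr3:38452958-38453006, plus strand) and Xbp1 (chr14:84604543-84604591, plus strand) are shown with the element in capitals, as genes that share it and were lower, higher and not called (RefSeq, GRCr8). Hspa5, Xbp1 and Chac1 were added to the called genes for this display after their values were seen.
Hsp90b1: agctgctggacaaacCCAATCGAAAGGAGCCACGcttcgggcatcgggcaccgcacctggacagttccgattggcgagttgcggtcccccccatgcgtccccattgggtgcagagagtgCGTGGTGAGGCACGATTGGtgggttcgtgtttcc
Canx: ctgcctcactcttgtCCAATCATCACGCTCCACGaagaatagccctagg
Hspa5: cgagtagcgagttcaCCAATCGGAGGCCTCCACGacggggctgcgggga
Xbp1: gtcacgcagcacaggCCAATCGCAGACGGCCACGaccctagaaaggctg
Hsp90b1 holds the element at 2 places, the second on the opposite strand. The unfolded protein response element TGACGTGG was in Hyou1 alone, where it overlaps the second form of the stress element, and in 0.595% of all promoters. ACAAT, the core the study took for Sox proteins, was in 8 of the 34 promoters (Asns, Edem1, Eif2ak3, Phgdh, Sel1l, Shmt2, Slc3a2 and Slc7a11). It was in 33.7% of all promoters and in 29.9% of those of protein-coding genes. The study searched a longer region of each gene with binding matrices and required conservation between species. The bare core counted here is therefore not a count of such sites, and the difference in shares was not tested.

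Of the 4 genes of ER-associated degradation, Sel1l was higher and Herpud1 was lower. Sel1l, the adaptor that holds the ubiquitin ligase Syvn1 in the membrane complex, had signals of 1492 and 1066 with the wild type siRNA, against 410 and 482 with the mutant siRNA. It was 3.0-fold higher, the largest increase of the 39 genes (log2 fold change 1.58, SE 0.23, limma adjusted p = 0.00358). Syvn1 itself had signals of 746 and 690 with the wild type siRNA, against 731 and 500 with the mutant siRNA, and did not pass (interval from -0.25 to 0.90). Herpud1, a membrane protein of the same complex, had signals of 767 and 854 with the wild type siRNA, against 1486 and 1315 with the mutant siRNA. The log2 fold change was -0.71 (SE 0.20, limma adjusted p = 0.0350), and the call was lost without wild type siRNA replicate 1 (adjusted p = 0.113) or either mutant siRNA array (adjusted p = 0.180 and 0.0934). Members of 1 complex thus stood on either side. Edem1, a lectin that hands glycoproteins to this complex, did not pass (interval from -0.70 to 0.23). Dimmer probe sets of Edem1 lay at 0.68 and 0.04 (limma adjusted p = 0.0854 and 0.933), so the probe sets of this gene differ in sign. The promoter of Herpud1 is shown because it holds both the composite element and the second form of the stress element, in that order in capitals (RefSeq, GRCr8, chr19:10614806-10614907, minus strand).
Herpud1: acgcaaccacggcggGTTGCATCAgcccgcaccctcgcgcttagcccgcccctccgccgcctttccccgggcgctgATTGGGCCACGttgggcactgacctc

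The mutant siRNA arrays differed from each other in many of the amino acid response genes. Mutant siRNA replicate 2 lay at least 2-fold above replicate 1 in 5 of the 39 genes (Asns, Shmt2, Mthfd2, Slc7a11 and Slc1a5), against 2.04% of all tested genes, and in none of the 39 was it as far below. The log2 difference of replicate 2 from replicate 1 was 1.66 in Asns, 1.41 in Slc1a5 and 1.20 in Shmt2. In the wild type siRNA arrays the same difference was -0.08 in Asns, -0.16 in Slc1a5 and 0.09 in Shmt2, so the spread lay in the control arrays. Replicate 2 was the higher mutant siRNA array in 10 of the 12 genes of amino acid synthesis and transport, against 45.0% of all tested genes. Phgdh and Psph were the exceptions, at -0.05 and -0.10. As a result Asns, Shmt2 and Slc1a5 were higher with the wild type siRNA in pair 1 and lower in pair 2, and Asns for example differed by 0.93 and -0.81 on the log2 scale. Chac1 turned in the same way, but its replicates differed in both groups. Its log2 difference of replicate 2 from replicate 1 was 0.52 in the mutant siRNA arrays and -0.29 in the wild type siRNA arrays. The actin control probe sets had a 3'/5' ratio of 1.87 on mutant siRNA replicate 1 and 1.52 on replicate 2, and those of Gapdh had 1.06 and 1.07. On the wild type siRNA arrays the actin ratio was 1.54 and 1.39 and that of Gapdh 1.11 and 1.10, so that in both pairs the actin ratio was lower, and the Gapdh ratio higher, with the wild type siRNA. The part of RNA quality in this difference, and in those between the groups, was not tested.

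**Figure D3:**
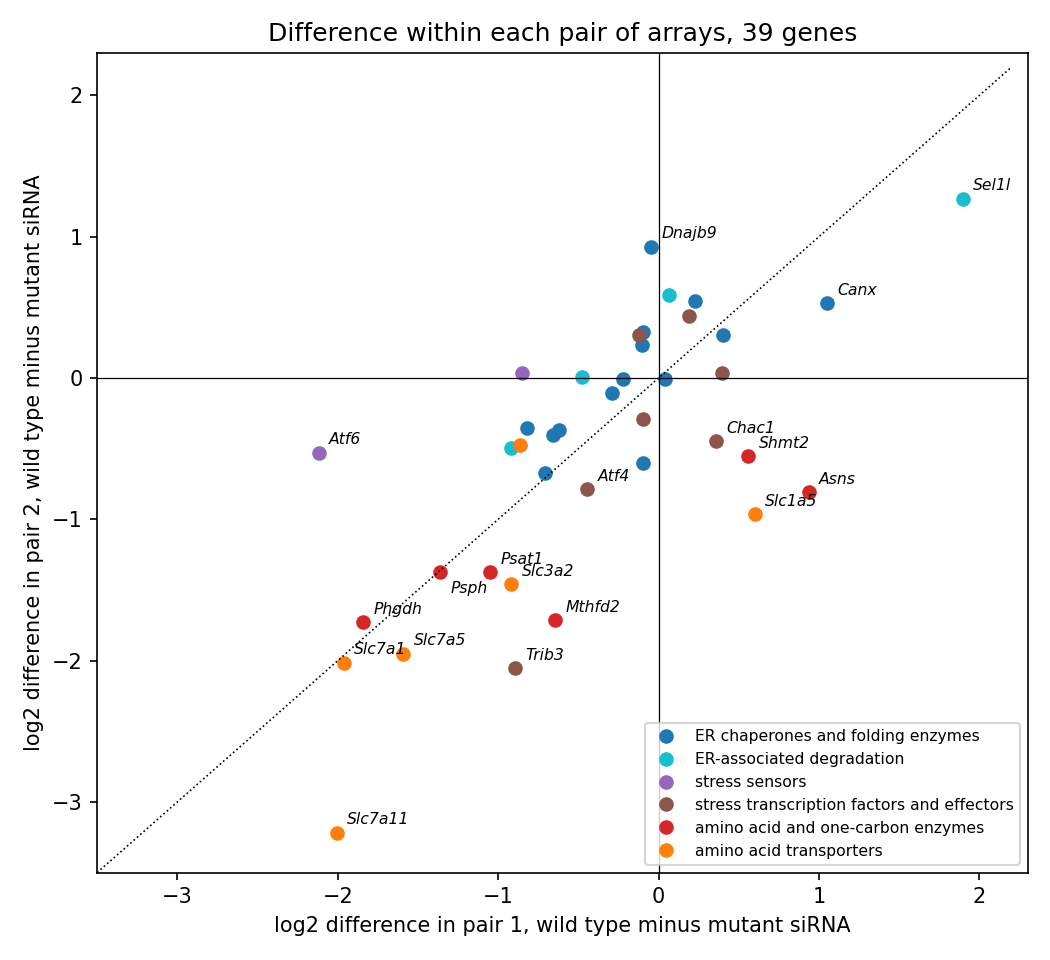
Log2 difference (wild type minus mutant siRNA) within pair 1 on the horizontal axis and within pair 2 on the vertical axis, for the 39 genes, coloured by role. The dotted line marks equal differences. Phgdh, Psph and Slc7a1 lie near it, and Atf6 was lower mainly in pair 1. Asns, Shmt2, Slc1a5, Chac1 and, close to the origin, Sdf2l1 were higher in pair 1 and lower in pair 2. Hspa5, Dnajb9, Dnajb11, Ppp1r15a, Edem1 and Eif2ak3 were lower in pair 1 and higher in pair 2.

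Further genes of these pathways were taken from 6 lists of 167 genes, of which 154 had a probe set and 140 were tested. Of the 140, 11 were lower and 16 were higher (7.86% and 11.4%), shares below the 10.6% and 17.4% over all genes, and their median log2 fold change was 0.16. With the pair of arrays as a block 35 were higher, and 24.5% of all genes. The lists differed among themselves. In the list of stress regulators and Atf4 or Ddit3 targets, 5 of 31 were lower (16.1%, against 10.6% of all genes), or 4 without Gdf15, which was bright enough to test through the mutant siRNA arrays alone. The 3 lowest were Gdf15, a stress-induced cytokine, at -2.94 (adjusted p = 0.0217), Atf5, a relative of Atf4, at -1.41 (adjusted p = 0.0182) and Ddit4, an inhibitor of mTORC1, at -1.37 (adjusted p = 0.0310). Each of these calls was lost with at least 1 array left out: Gdf15 without mutant siRNA replicate 1 or 2 (adjusted p = 0.158 and 0.121), Atf5 without mutant siRNA replicate 2 (adjusted p = 0.119) and Ddit4 without replicate 1 of the wild type or the mutant siRNA (adjusted p = 0.0851 and 0.167). The fold of Gdf15 rests on wild type siRNA signals of 15.2 and 47.9, the lower of them under the 25th percentile of its array, and it was -2.09 with wild type siRNA replicate 1 left out and -3.80 with replicate 2 left out. Cebpg, the partner that binds composite elements with Atf4, had signals of 445 and 424 with the wild type siRNA, against 1123 and 1233 with the mutant siRNA, and its call held with each array left out (log2 fold change -1.36, limma adjusted p = 0.00390). It is named after its values were seen, as is Tmbim6 below.

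In the same list 8 of 31 genes were higher (25.8%, against 17.4% of all genes). Creb3l2, an ER-resident transcription factor cut in the manner of Atf6, had signals of 483 and 728 with the wild type siRNA, against 120 and 195 with the mutant siRNA (log2 fold change 2.03, limma adjusted p = 0.00542). Sesn3, a relative of Sesn2 that is also known as a FoxO target, lay at 1.93 (adjusted p = 0.00235), and Crebrf, a regulator of Creb3 proteins, at 1.68 (adjusted p = 0.0120). The calls of Creb3l2 and Sesn3 held with each array left out, and that of Crebrf was lost without wild type siRNA replicate 1 (adjusted p = 0.0633) or mutant siRNA replicate 2 (adjusted p = 0.0606). Tmbim6, a membrane protein of the ER that restrains Ern1, had signals of 14139 and 11754 with the wild type siRNA, against 6463 and 5068.5 with the mutant siRNA, and held in each of these fits (log2 fold change 1.25, adjusted p = 0.00326).

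Of 19 further genes of ER-associated degradation, 4 were higher (21.1%, near the 17.4% of all genes) and none was lower in limma. At an unadjusted p under 0.05, 10 were higher and 1 was lower, where 27.5% of all genes were higher and 14.96% lower. Ube2j1, a ubiquitin-conjugating enzyme of the ER membrane, had signals of 2696 and 2130 with the wild type siRNA, against 841 and 1054 with the mutant siRNA (log2 fold change 1.43, limma adjusted p = 0.00349). Derl2, a channel component that works with Sel1l, lay at 1.01 (adjusted p = 0.00742), and the calls of both held with each array left out. Ubxn4, which recruits the Vcp ATPase, lay at 0.67 (adjusted p = 0.0184) and was lost without wild type siRNA replicate 1 or either mutant siRNA array (adjusted p between 0.0565 and 0.104). The median of this list was 0.41, against 0.19 over all genes. Of 49 further folding and translocation genes, 3 were higher and 1 was lower (6.12% and 2.04%, both below the shares of all genes). Srprb, a subunit of the receptor that docks ribosomes at the ER, lay at 1.28 (adjusted p = 0.00820) and held with each array left out. Sec11c, of the signal peptidase, and Ssr3, of the translocon, lay at 0.70 and 0.56 (adjusted p = 0.0286 and 0.0266), and both calls were lost with any 1 array left out (adjusted p between 0.0528 and 0.163). Sec63, a translocon partner of Hspa5, lay at -1.06 (adjusted p = 0.0189), lost without wild type siRNA replicate 1 or either mutant siRNA array (adjusted p between 0.0582 and 0.0907).

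Among 8 further amino acid transporters, 2 were lower and 1 was higher, where 10.6% of all genes were lower and 17.4% higher. Slc6a9, a glycine carrier, had signals of 117 and 132 with the wild type siRNA, against 354 and 532 with the mutant siRNA (log2 fold change -1.72, limma adjusted p = 0.00764). Slc1a4, a carrier of serine and alanine, had signals of 158 and 172 with the wild type siRNA, against 421 and 575 with the mutant siRNA (-1.50, adjusted p = 0.00803). Both calls were lost without mutant siRNA replicate 2, where the log2 fold changes were -1.45 for Slc6a9 and -1.29 for Slc1a4. Slc36a1, a lysosomal carrier, had signals of 288 and 150 with the wild type siRNA, against 6.30 and 20.9 with the mutant siRNA. This gene was bright enough to test through the wild type siRNA arrays alone, and without it none of these transporters was higher. The mutant siRNA signals lie below the 25th percentile of their arrays, so the size of its increase (4.26 on the log2 scale, adjusted p = 0.0182) is not established. It was 3.41 with mutant siRNA replicate 1 left out and 5.11 with replicate 2 left out, and the call was lost without wild type siRNA replicate 1 (adjusted p = 0.254). Of 12 further enzymes, Oat, which makes proline and glutamate precursors from ornithine, was lower at -1.15 (adjusted p = 0.00825), lost without mutant siRNA replicate 2 (adjusted p = 0.0537). Of 21 aminoacyl-tRNA synthetase genes 2 were lower (9.52%, near the 10.6% of all genes): Nars1, of asparagine, at -1.04 (adjusted p = 0.0105, lost without mutant siRNA replicate 2 at 0.0694) and Sars1, of serine, at -0.59 (adjusted p = 0.0226, lost with any 1 array left out, adjusted p between 0.0597 and 0.106). In 19 of these 21 genes mutant siRNA replicate 2 lay above replicate 1, against 45.0% of all tested genes.

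**Figure D4:**
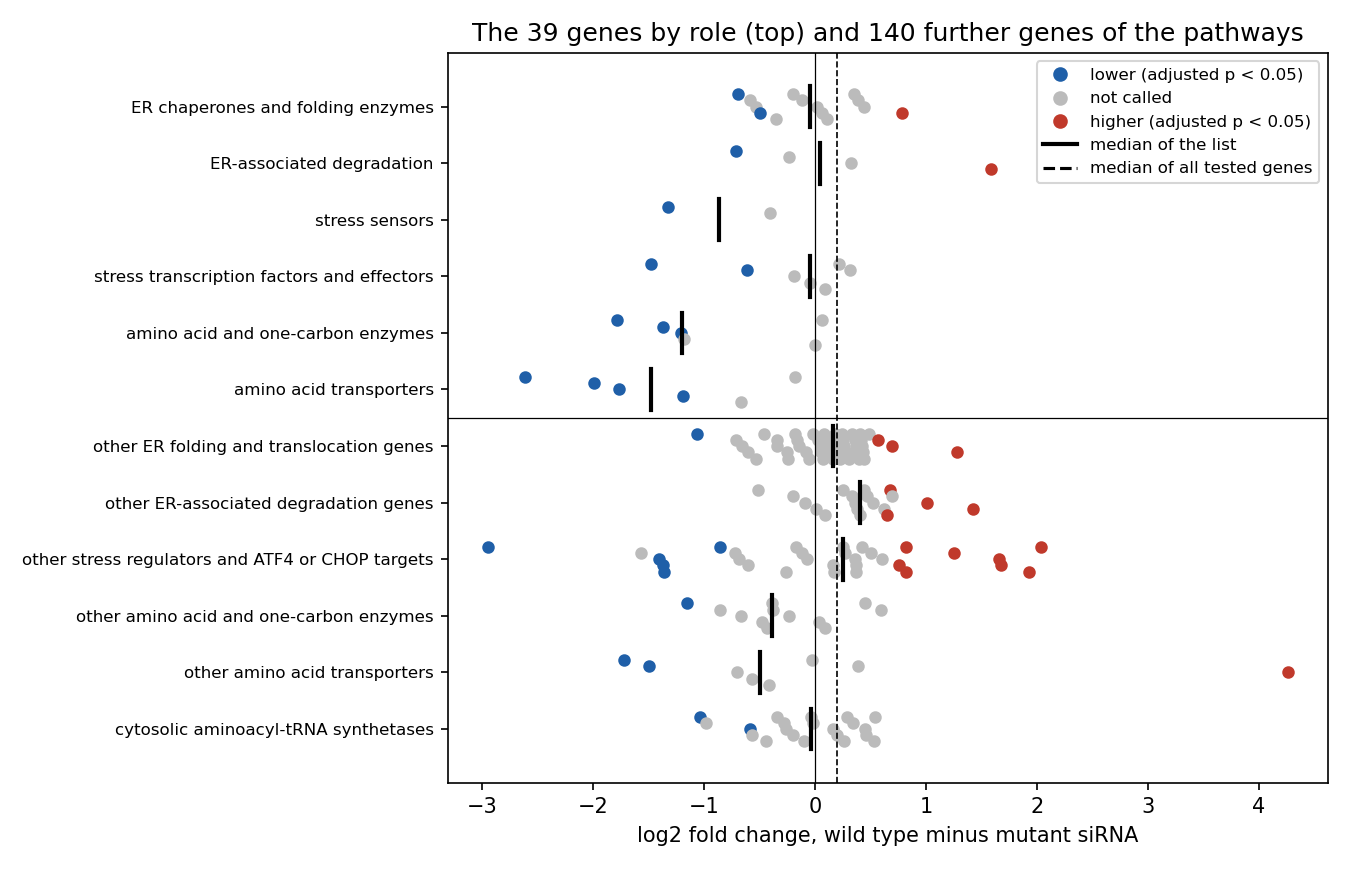
Log2 fold change (wild type minus mutant siRNA) of the 39 genes by role above the horizontal line and of 140 further genes in 6 lists below it. Each point is a gene, blue where called lower and red where called higher by limma, black bars are the median of each list and the dashed line is the median of all tested genes, 0.19. Transporters and enzymes of amino acids have the lowest medians among lists of more than 2 genes, -1.48 and -1.20, and the further degradation genes the highest, 0.41. The transporter median includes Slc7a11, which was bright enough to test through the mutant siRNA arrays alone.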

How the data were processed

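The values deposited by the authors are intensities: 1 linear MAS5 signal a probe set (version not given in the sources used here), scaled to a 2% trimmed mean of 500 on every array. Detection calls were not used. Here 57 control probe sets were left out and each array's median log2 signal was subtracted, as in the study's median normalization. A probe set was tested if at least 2 of the 4 arrays reached their median (16125 of 31042), with limma 3.58.1 in R 4.3.3 (intensity trend, Benjamini-Hochberg over all tested probe sets). Their median log2 fold change was 0.13, and 0.05 without centring. Log2 fold changes are wild type minus mutant siRNA.

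Symbols came from the platform annotation (20826 probe sets with 1 symbol, 436 with several, 9780 with none), those of the further lists updated by gene ID. Genes and lists were chosen with earlier results of these data known. Every gene that passed the test, or lay beyond 1 on the log2 scale, is given with its signals, as are Atf4, Xbp1, Atf6, Eif2ak3, Hspa5 and Ddit3. Of further genes the 3 lowest and 3 highest calls of each list are named. The fit was checked on simulated arrays. Promoters are those of RefSeq on GRCr8, matched by symbol. Tables and plots used Python 3.11.15. The number of arrays limits the precision.

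Because both the study and its design text speak of paired cell samples, the pair was fitted as a block in an alternative. Array deviations within a pair correlated at 0.14. Other alternatives were scaling, low signals, filter, variance model, the methods' t-test, other probe sets and each array left out.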

Additional observations from a re-analysis of the deposited data

How the results depend on the processing

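Counts of lower and higher genes are given first for the 39 genes, 13 and 2, and then for the 140 further genes, 11 and 16. Limma without an intensity trend gave 7 and 1, then 5 and 8. The methods' t-test at its own unadjusted threshold of 0.05 gave 8 and 2, then 6 and 21, and after Benjamini-Hochberg adjustment it called 0 in all 4 counts, where limma called 13, 2, 11 and 16. The replicate block gave 17 and 3, then 15 and 35, no filter 10 and 2, then 11 and 15, no further scaling 17 and 2, then 13 and 15, and quantile normalization 16 and 2, then 13 and 14. Leaving out each array gave 5 to 13 and 1 to 2, then 2 to 15 and 9 to 16, with a lone array assumed to vary like the other group. The cause of these changes was not tested. Over all tested probe sets the balance turned with scaling, with 1956 lower and 2348 higher after centring, 2280 and 1940 without it and 2150 and 2043 with quantile normalization. The main fit called 12.1% of them lower and 14.6% higher. These shares were 7.36% and 7.30% without the trend, 5.36% and 6.10% with no filter, and 16.0% and 20.5% with the block. They also moved with each array left out.

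Calls of Hsp90b1, Atf4 and Trib3 were lost with no filter, that of Atf6 with the mean of its probe sets, and those of Hsp90b1, Canx, Pdia4, Herpud1, Atf6, Atf4 and Psat1 without the trend (adjusted p between 0.0713 and 0.142). Creld2, Manf and Slc38a2 were called lower both without further scaling and with quantile normalization, Mthfd2 without further scaling, and Creld2 and Mthfd2 where all 4 arrays had to reach the median.

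No called gene among the 39 changed sign in any alternative, while 13 genes that were not called did. Without further scaling Hspa5 lay at -0.016, Sdf2l1 at -0.063, Asns at -0.014 and Shmt2 at -0.076. With quantile normalization Hspa5 lay at -0.045, Dnajb11 at -0.0099, Sdf2l1 at -0.067 and Shmt2 at -0.12. With the mean of all probe sets Pdia3 lay at -0.35 and Edem1 at 0.16. With each array left out in turn the log2 fold change ran between -0.10 and 0.23 in Hspa5, -0.23 and 0.0054 in Calr, -0.15 and 0.37 in Dnajb11, -0.13 and 0.16 in Sdf2l1, -0.47 and 0.088 in Xbp1, and -0.083 and 0.51 in Ddit3. It ran between -0.30 and 0.21 in Chac1, -0.15 and 0.33 in Ppp1r15a, -0.76 and 0.89 in Asns, -0.60 and 0.60 in Shmt2, and -0.89 and 0.52 in Slc1a5.

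Groups of 2 arrays limit the precision. The limma p-values rest on the spread between a gene's own arrays together with a spread shared over probe sets of like intensity. Slc7a11 and Trib3 had no value where all 4 arrays had to reach the median. Beyond the calls given in the report, the block changed no other call among the 39 genes.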
